A study of Homo sapiens with 24 samples.

Results

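The genes described here are the 3 human trypsinogens PRSS1, PRSS2 and PRSS3 and the trypsin inhibitor SPINK1, 4 of the 78724 genes in each deposited count table. They were chosen by symbol, with their pattern over the sorafenib doses in OCUG-1 cells already known, and each symbol matched 1 Ensembl gene ID. All 4 passed the filter on low counts in both cell lines, SPINK1 in OCUG-1 only through the libraries with 10 µM sorafenib or the combination. RNA sequencing covered 24 libraries of 2 human biliary tract cancer lines, HuCCT1 from an intrahepatic cholangiocarcinoma, grown in RPMI-1640, and OCUG-1 from a gallbladder cancer, grown in DMEM. Each line had 4 arms of 3 biological replicates at 72 h: vehicle (up to 0.1% DMSO), sorafenib at 1.25 µM, sorafenib at 10 µM, and 1.25 µM sorafenib together with 1 µM IACS-010759, called the combination below. Sorafenib inhibits several kinases, RAF and VEGF receptors among them, and IACS-010759 inhibits complex I of the mitochondrial respiratory chain. No arm held IACS-010759 alone, and line and medium cannot be told apart.

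Trypsinogens are the inactive precursors of trypsin, a serine protease that cuts proteins after lysine and arginine. Pancreatic acinar cells make them for digestion, enteropeptidase in the gut activates them, and active trypsin can activate further trypsinogen. PRSS1 encodes the cationic form, PRSS2 the anionic form and PRSS3 mesotrypsinogen, whose trypsin resists and degrades several trypsin inhibitors. SPINK1 encodes a small secreted Kazal-type inhibitor that binds the active site of trypsin and is also known as tumour-associated trypsin inhibitor. Trypsinogens and SPINK1 are also made outside the pancreas, biliary and other gut cancers included, and trypsin can cut and activate the receptor PAR2 on epithelial cells.

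Total counts ran from 18238834 to 30693736 per HuCCT1 library and from 14388855 to 24019011 per OCUG-1 library. Mitochondrial genes took between 12.5% and 21.8% of the counts in HuCCT1 with 1.25 µM sorafenib, against 7.08% to 14.1% with vehicle. In OCUG-1 the share was 9.39% to 13.6% with vehicle or 1.25 µM sorafenib and 4.71% to 6.48% with 10 µM sorafenib or the combination. Its part in the results below was not tested. Biliary epithelial markers were present: 7 of 8 averaged over 10 CPM (counts per 1000000 counted reads) in every HuCCT1 arm and 5 or 6 of 8 in the OCUG-1 arms. KRT7 (8.24 CPM) and CDH1 (3.13 CPM) were among the markers under 10 CPM in OCUG-1 with vehicle. Of 27 pancreatic acinar markers, 0 averaged over 10 CPM in any arm. The acinar transcription factor PTF1A had no count in any library, and the acinar markers summed to 9.51 to 14.4 CPM per HuCCT1 library and 12.3 to 27.7 CPM per OCUG-1 library.

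PRSS1 (ENSG00000204983, GRCh38 chr7:142749468-142753076) and PRSS2 (ENSG00000275896, chr7:142760398-142774564) lie 7322 bases apart on the plus strand, inside the T cell receptor beta locus. PRSS3 (ENSG00000010438, chr9:33750466-33799231) is on the plus strand of chromosome 9 and SPINK1 (ENSG00000164266, chr5:147824568-147831786) on the minus strand of chromosome 5. The 3 trypsinogen genes are copies of one another, also in front of their starts, and these sequences are shown side by side. The stretches come from RefSeq (GRCh38.p14), each ending just before the first base of its RefSeq promoter window that GENCODE release 29 counts as exon: PRSS1 chr7:142749222-142749467, PRSS2 chr7:142770720-142770966 and PRSS3 chr9:33795311-33795534, all plus strand, 5′ to 3′. GENCODE lists 6 transcript starts for PRSS1, 5 for PRSS2 and 8 for PRSS3, and the stretches of PRSS2 and PRSS3 lie inside the gene bounds above, downstream of the first of these starts. Capitals mark the TATA box TATAAA, the AP-1 motif TGANTCA and a pair, the E-box CANNTG followed after 9 bases by TGGGA.
PRSS1: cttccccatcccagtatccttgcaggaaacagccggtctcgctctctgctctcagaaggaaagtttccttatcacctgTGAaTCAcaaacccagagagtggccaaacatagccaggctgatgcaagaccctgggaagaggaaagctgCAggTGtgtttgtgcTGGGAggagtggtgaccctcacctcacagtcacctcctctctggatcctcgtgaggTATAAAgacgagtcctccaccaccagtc
PRSS2: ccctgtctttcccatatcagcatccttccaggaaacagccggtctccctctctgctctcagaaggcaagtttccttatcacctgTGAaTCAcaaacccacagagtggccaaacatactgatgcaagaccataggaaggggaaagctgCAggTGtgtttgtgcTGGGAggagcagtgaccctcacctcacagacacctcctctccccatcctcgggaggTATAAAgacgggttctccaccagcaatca
PRSS3: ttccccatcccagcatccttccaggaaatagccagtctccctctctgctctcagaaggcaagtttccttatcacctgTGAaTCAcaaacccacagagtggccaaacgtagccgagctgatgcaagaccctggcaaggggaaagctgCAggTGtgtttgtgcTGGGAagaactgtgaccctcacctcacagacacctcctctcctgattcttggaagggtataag
Identity over RefSeq's whole promoter windows was 91.0% between PRSS1 and PRSS2, 88.8% between PRSS1 and PRSS3 and 90.1% between PRSS2 and PRSS3, and 62.9% to 64.7% between SPINK1 and a trypsinogen. TATAAA, searched on the forward strand, was in the windows of PRSS1 and PRSS2, 32 bases before the start, and not in those of PRSS3 or SPINK1, and 6.80% of all 35116 promoters hold it. The printed PRSS3 stretch ends in TATAAG, which differs from TATAAA only in its last letter. TGANTCA, searched on both strands, was in the 3 trypsinogen windows and in 6.57% of all promoters, and TTCNNNGAA, a STAT motif left in lower case, was on either strand in all windows but that of PRSS1 and in 6.57% of all promoters. The E-box pair, also searched on both strands and chosen after the sequences were seen, was in the same 3 windows and in 0.384% of all promoters. A match describes letters in the window and shows no binding. Gene counts do not show which start was used in these cells, and no link between motifs and levels was tested.

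Reads could in principle be shared between these copies, since the mRNAs were 92.6% (PRSS1 and PRSS2), 90.1% (PRSS1 and PRSS3) and 92.3% (PRSS2 and PRSS3) identical. No window of 150 bases, the read length, in the main transcript of any of the 4 genes occurred in a transcript of another gene. At 75 bases, 4.30% of the PRSS2 windows also occurred in the pseudogene PRSS3P1, which overlaps PRSS2 and had at most 3 counts in a library. PRSS3 shares exons with the antisense gene UBE2R2-AS1 (at most 83 counts), and reads of that pair cannot be told apart, because no source used here gives the strand setting of the counting. Such a count would be small beside PRSS3 in HuCCT1 (708 to 1986 counts per library) but not in OCUG-1 (22 to 143). In bulk RNA, fewer cells that make a transcript and less of it per cell cannot be told apart either.

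The cationic trypsinogen PRSS1 was highest in HuCCT1 with vehicle, at 25.8, 26.0 and 21.0 CPM in the 3 libraries. With sorafenib it stood at 8.90, 10.8 and 8.53 CPM at 1.25 µM and at 8.37, 8.96 and 8.98 CPM at 10 µM, and with the combination at 10.7, 9.17 and 10.3 CPM. Every treated HuCCT1 library was thus below every vehicle library. The 1.25 µM arm overlapped both other treated arms, while every combination library was above every 10 µM library. In OCUG-1 the vehicle libraries held 2.53, 2.13 and 2.68 CPM of PRSS1, and those with 1.25 µM sorafenib held 6.07, 6.55 and 4.25 CPM. With 10 µM sorafenib the values were 0.402, 1.35 and 0.517 CPM, and with the combination 2.12, 2.43 and 1.54 CPM. The OCUG-1 order was therefore 1.25 µM above vehicle and vehicle above 10 µM, with no overlap between these 3 arms, and the combination overlapped vehicle. Behind the lowest arm were 54 PRSS1 counts in 3 libraries, of which 33 came from replicate 2.

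PRSS2, the anionic trypsinogen, gave its highest level of all 8 groups in OCUG-1 with 1.25 µM sorafenib, at 26.3, 24.2 and 18.7 CPM. The OCUG-1 vehicle libraries held 5.18, 3.39 and 5.93 CPM, those with 10 µM sorafenib 0.804, 0.940 and 0.983 CPM, and those with the combination 2.43, 2.39 and 1.44 CPM. No pair of the 4 OCUG-1 arms overlapped. In HuCCT1 the levels were 13.2, 17.7 and 13.8 CPM with vehicle, 10.7, 8.23 and 9.07 CPM with 1.25 µM sorafenib, 3.83, 4.43 and 2.102 CPM with 10 µM, and 8.46, 7.48 and 8.22 CPM with the combination. HuCCT1 thus went down with dose, and only its 1.25 µM and combination arms overlapped. In the order of the 8 groups by mean, OCUG-1 with vehicle and HuCCT1 with 10 µM sorafenib overlapped, as did the latter and OCUG-1 with the combination.

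PRSS3, mesotrypsinogen, separated the lines more than the drugs. HuCCT1 held 54.4, 47.5 and 57.1 CPM with vehicle, 47.4, 44.8 and 48.2 CPM with 1.25 µM sorafenib, and 45.97, 53.6 and 57.4 CPM with 10 µM. These 3 arms overlapped, and the combination arm lay above them at 67.2, 70.4 and 68.5 CPM. OCUG-1 held 1.296, 1.61 and 1.88 CPM with vehicle, 2.17, 2.61 and 2.41 CPM with 1.25 µM sorafenib, 2.70, 3.27 and 2.43 CPM with 10 µM, and 6.88, 5.59 and 7.12 CPM with the combination. Both sorafenib arms were above vehicle in OCUG-1 and overlapped each other, and the combination was above all other OCUG-1 arms.

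SPINK1, the inhibitor, was low in HuCCT1 and nearly without counts in untreated OCUG-1. HuCCT1 held 4.92, 4.97 and 4.18 CPM with vehicle, 2.61, 3.63 and 2.40 CPM with 1.25 µM sorafenib, 2.95, 3.04 and 5.62 CPM with 10 µM, and 3.08, 2.71 and 2.80 CPM with the combination. The third library at 10 µM was above all vehicle libraries, so that only the 1.25 µM and combination arms stayed wholly below vehicle. In OCUG-1 the raw SPINK1 counts were 0, 0 and 2 with vehicle and 0, 2 and 0 with 1.25 µM sorafenib. They were 16, 13 and 7 with 10 µM sorafenib and 37, 25 and 28 with the combination. Both groups with 2 counts are under the 3 counts that a group at 0 could still hold, 0.0578 and 0.0581 CPM, so no fold is given between them. The 10 µM libraries stood at 0.585, 0.531 and 0.362 CPM and the combination libraries at 1.91, 1.07 and 1.39 CPM, and these 2 groups overlapped neither each other nor the untreated and 1.25 µM libraries.

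**Figure D1:**
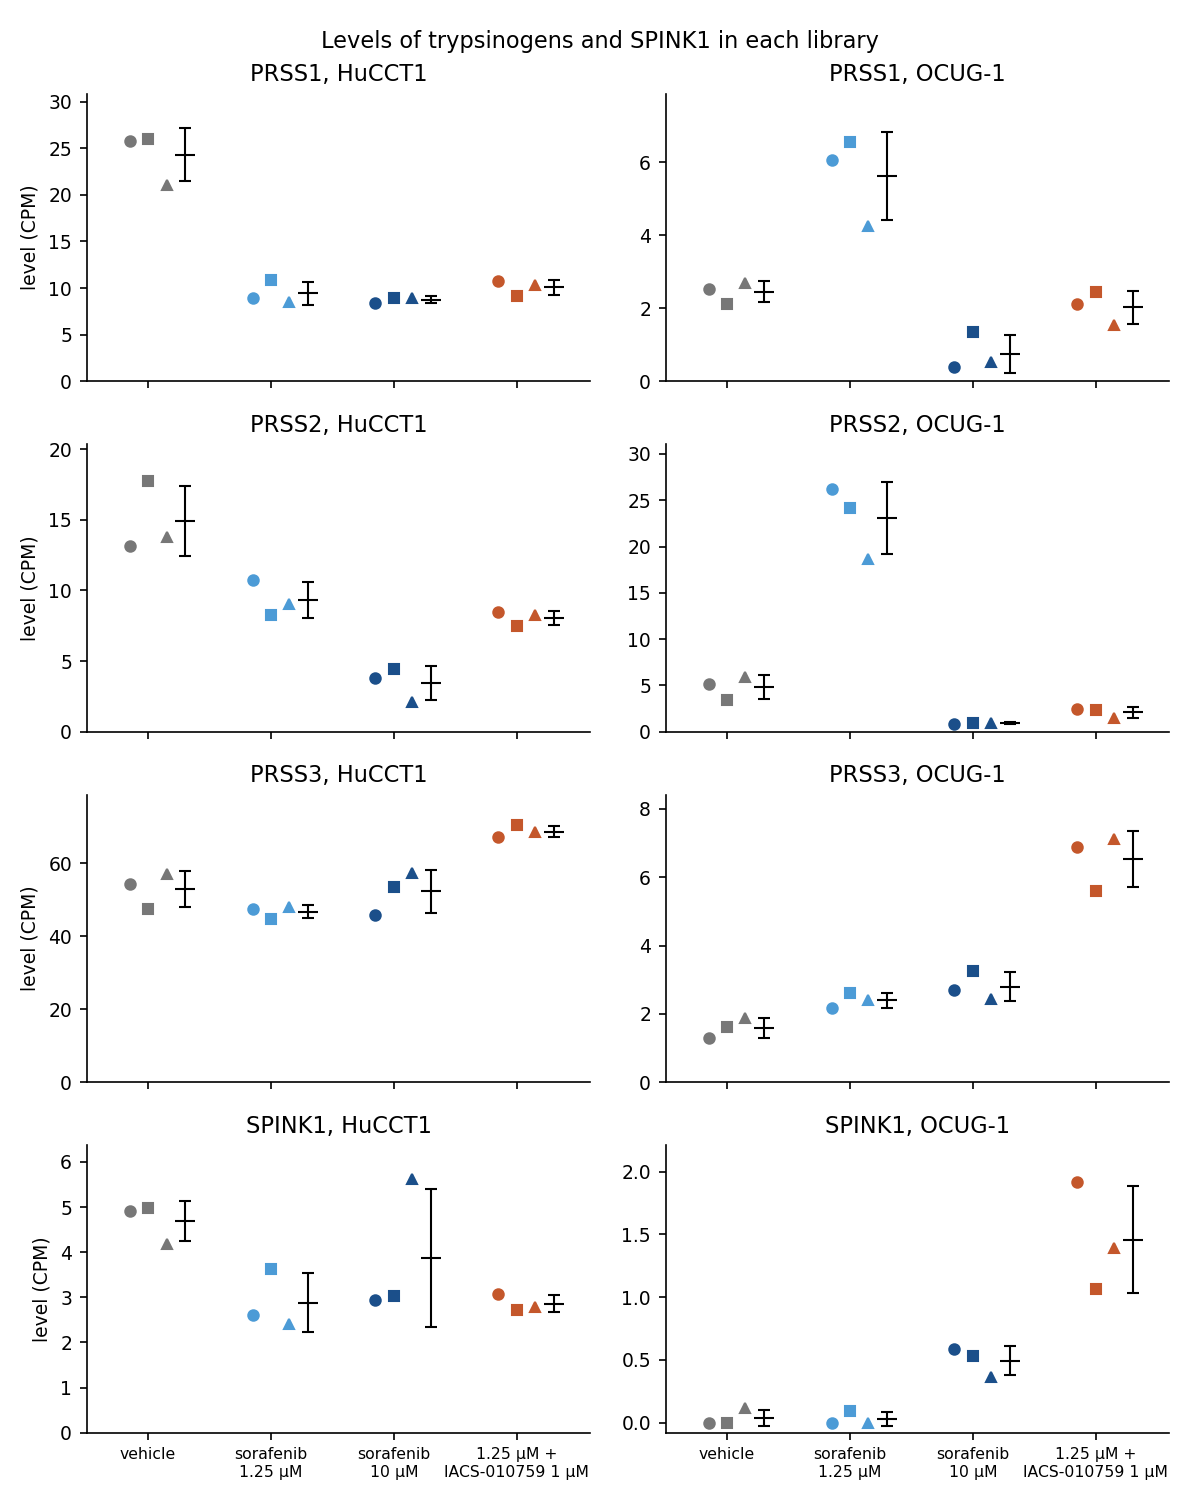
Level of each gene in each library, in CPM on a linear axis, by arm (x axis), with HuCCT1 on the left and OCUG-1 on the right; circles, squares and triangles are replicates 1, 2 and 3, and the bar beside them is the mean with its SD (n = 3). PRSS1 and PRSS2 peak with vehicle in HuCCT1 and with 1.25 µM sorafenib in OCUG-1, while PRSS3 is highest with the combination in both lines.

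Per kilobase of transcript, levels can also be set between genes. In HuCCT1 with vehicle PRSS3 had 46.3 CPM per kilobase of its longest coding transcript, PRSS1 30.2, PRSS2 17.5 and SPINK1 3.95. In OCUG-1 the order of the trypsinogens was another: PRSS2 led with 5.67 CPM per kilobase with vehicle and 27.0 with 1.25 µM sorafenib, ahead of PRSS1 (3.05 and 7.001) and PRSS3 (1.39 and 2.095). With the combination PRSS3 led in OCUG-1, at 5.71 CPM per kilobase, above PRSS1 at 2.53 and PRSS2 at 2.45. Taking the shortest coding transcript or all annotated exons as the length left PRSS3 first in HuCCT1 with vehicle, PRSS2 first in OCUG-1 with vehicle and 1.25 µM, and PRSS3 first in OCUG-1 with the combination.

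The dose pattern in OCUG-1, for which the genes were chosen, is described without a test. From vehicle to 1.25 µM sorafenib the fitted log2 fold change was 1.18 ± 0.31 (SE) for PRSS1, 2.22 ± 0.21 for PRSS2 and 0.56 ± 0.24 for PRSS3, in a comparison where 10.5% of all 20511 tested genes were called, 5.92% higher and 4.61% lower. From vehicle to 10 µM it was -1.61 ± 0.36 for PRSS1, -2.34 ± 0.26 for PRSS2 and 0.88 ± 0.23 for PRSS3, with 63.1% of genes called, 32.4% higher and 30.7% lower. The 2 chromosome 7 trypsinogens thus lay on opposite sides of vehicle at the 2 doses, and PRSS3 above vehicle at both. Without 10 µM replicate 2, the value for PRSS1 at 10 µM was -2.35. Between the doses PRSS2 was 23.7-fold lower at 10 µM than at 1.25 µM (log2 fold change -4.57 ± 0.25) and PRSS1 6.91-fold lower (-2.79 ± 0.34), while PRSS3 differed by 0.32 ± 0.22, with 60.5% of genes called. For SPINK1 the ratio of counts scaled for depth was 13.1 for 10 µM over vehicle, with an exact 95% interval of 3.38 to 113 that covers counting error only. This interval, like those for SPINK1 below, pools the 3 libraries of a group. It leaves out the spread between replicates and the choice of the gene, and serves as no test.

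In HuCCT1, 1.25 µM sorafenib went with less of both chromosome 7 trypsinogens. PRSS1 fell 2.56-fold (log2 fold change -1.36 ± 0.14, edgeR quasi-likelihood test, Benjamini-Hochberg adjusted p = 2.55e-05) and PRSS2 1.59-fold (-0.67 ± 0.20, adjusted p = 0.0279). SPINK1 was 1.60-fold lower without passing the threshold (-0.68 ± 0.25, adjusted p = 0.0709), and PRSS3 differed by -0.18 ± 0.10 (adjusted p = 0.249). So 2 of 4 genes were called, both lower, where 18.5% of the 19576 tested genes were called and 8.50% were called lower. The PRSS2 call was lost without vehicle replicate 2 (adjusted p = 0.0998) or without 1.25 µM replicate 2 (adjusted p = 0.130). Scaled by library size alone, which moved the median of all genes by -0.145, SPINK1 (-0.83, adjusted p = 0.0269) and PRSS3 (-0.32, adjusted p = 0.0465) passed as well.

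At 10 µM in HuCCT1 the same 2 genes were lower than with vehicle, PRSS1 2.77-fold (-1.47 ± 0.14, adjusted p = 3.23e-06) and PRSS2 4.26-fold (-2.09 ± 0.21, adjusted p = 7.19e-06). PRSS3 (-0.02 ± 0.10, adjusted p = 0.913) and SPINK1 (-0.29 ± 0.25, adjusted p = 0.418) did not pass, and 24.2% of all genes were called, 11.2% lower. Without 10 µM replicate 3, the library with the high SPINK1 level, SPINK1 was called at -0.65 (adjusted p = 0.0389). Between the doses PRSS2 was 2.67-fold lower at 10 µM than at 1.25 µM (-1.42 ± 0.22, adjusted p = 2.68e-04), against 28.2% of genes called and 13.7% called lower. PRSS1 differed between the doses by -0.12 ± 0.14 (adjusted p = 0.579), PRSS3 by 0.16 ± 0.10 (adjusted p = 0.280) and SPINK1 by 0.39 ± 0.26 (adjusted p = 0.281). With library size scaling PRSS3 passed there too, at 0.33 (adjusted p = 0.0310), with the median of all genes moved by 0.180.

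Adding IACS-010759 to 1.25 µM sorafenib in HuCCT1 went with a rise of PRSS3, from a mean of 46.8 ± 1.77 to 68.7 ± 1.62 CPM (SD, n = 3). The rise was 1.47-fold (log2 fold change 0.55 ± 0.10, adjusted p = 0.00305 in the edgeR test), and it passed when any 1 library was left out. PRSS1 (0.09 ± 0.14, adjusted p = 0.734), PRSS2 (-0.21 ± 0.20, adjusted p = 0.553) and SPINK1 (-0.03 ± 0.26, adjusted p = 0.963) did not pass. Of all genes 11.6% were called, 5.06% higher.

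In OCUG-1 the same addition starts from the 1.25 µM libraries, the peak of the dose pattern for which the genes were chosen, so its values are also given without a test, beside 58.1% of all genes called. PRSS2 was 10.1-fold lower with the combination than with 1.25 µM sorafenib, at 2.09 ± 0.559 against 23.0 ± 3.90 CPM (log2 fold change -3.34 ± 0.23), and PRSS1 2.55-fold lower, at 2.03 ± 0.452 against 5.62 ± 1.21 CPM (-1.35 ± 0.31). PRSS3 was 2.93-fold higher (1.55 ± 0.21). SPINK1 had 90 counts in 3 libraries against 2, a depth-scaled ratio of 37.0 with an exact 95% counting interval of 9.94 to 310. Since SPINK1 passed the filter in OCUG-1 only through the libraries in which it is high, no comparison of it that involves OCUG-1 carries a test.

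Against vehicle, whose libraries the dose pattern also used, the OCUG-1 combination arm had 2.17-fold less PRSS2 (-1.12 ± 0.24, adjusted p = 5.65e-04) and 4.32-fold more PRSS3 (2.11 ± 0.22, adjusted p = 2.01e-07). PRSS1 was not called (-0.17 ± 0.33, adjusted p = 0.661), and the SPINK1 counting ratio was 37.2, with an interval of 10.0 to 312. These 2 calls among 3 tested genes stand beside 59.5% of all genes called. Since the genes were chosen for a pattern that includes the vehicle libraries, their p-values are not independent of that choice. Against 10 µM sorafenib, the low end of the dose pattern and so again without a test, PRSS1 was 2.71-fold higher with the combination (1.44 ± 0.36), PRSS2 2.34-fold (1.23 ± 0.28) and PRSS3 2.34-fold (1.23 ± 0.20), and SPINK1 differed by 1.54 ± 0.49. In that comparison 5.25% of all genes were called, 3.17% higher and 2.08% lower. Without 10 µM replicate 2 the PRSS1 difference was 2.15.

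**Figure D2:**
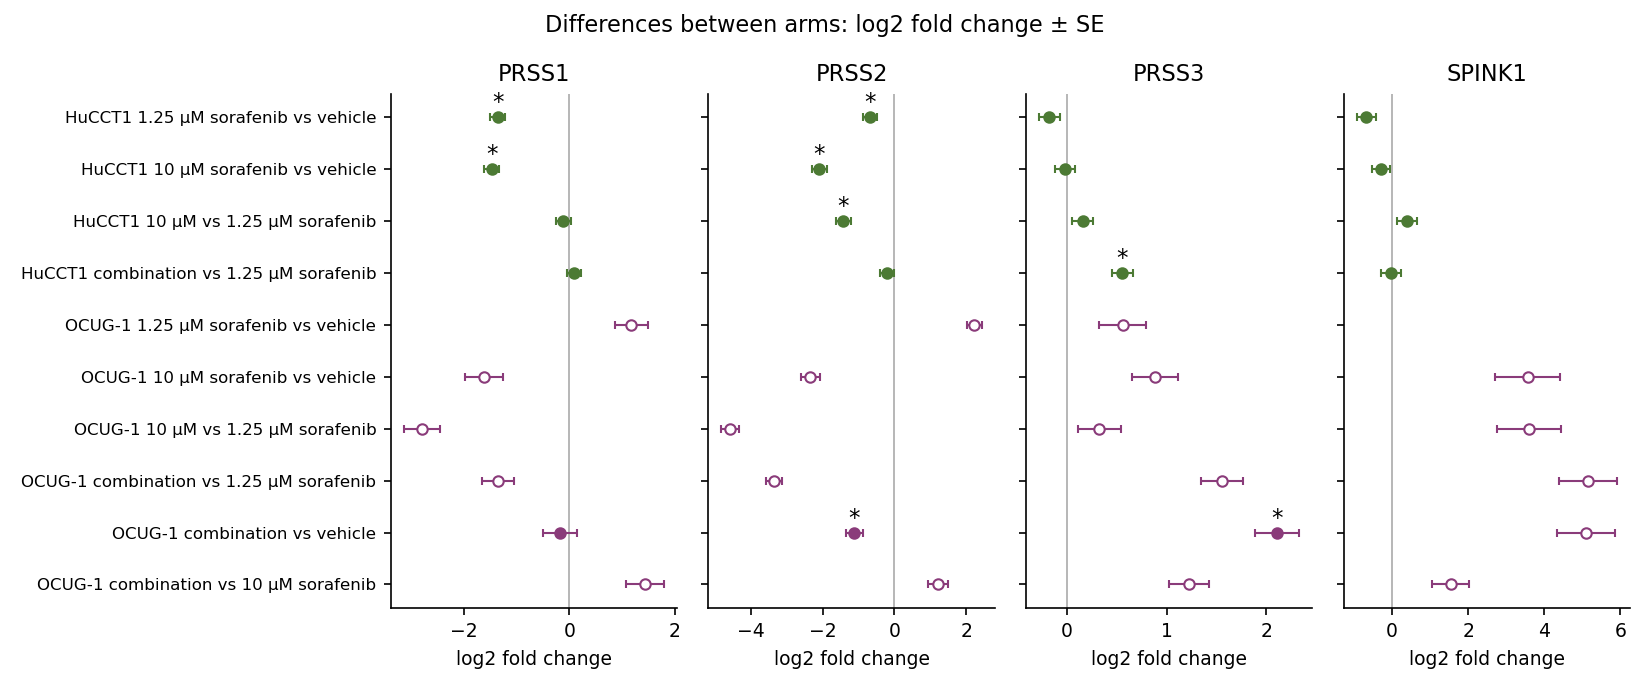
Log2 fold change with its SE (x axis, one panel per gene, each with its own scale) for 10 comparisons (y axis), HuCCT1 in green and OCUG-1 in purple. Filled points were tested, with an asterisk where the adjusted p is under 0.05, open points are given without a test, and SPINK1 at 1.25 µM in OCUG-1 is left out; PRSS1 and PRSS2 lie left of 0 at 1.25 µM in HuCCT1 (-1.36 and -0.67) and right of 0 in OCUG-1 (1.18 and 2.22).

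Without drug the 3 trypsinogens were lower in OCUG-1 than in HuCCT1, in a comparison where 68.3% of 22944 genes were called, 32.7% lower and 35.6% higher. PRSS3 was 33.1-fold lower (log2 fold change -5.05 ± 0.16, adjusted p = 7.07e-22), PRSS1 9.91-fold (-3.31 ± 0.23, adjusted p = 1.83e-13) and PRSS2 3.07-fold (-1.62 ± 0.22, adjusted p = 1.53e-07). The OCUG-1 vehicle libraries also belong to the dose pattern, so these p-values are not independent of the choice of genes. SPINK1 had 310 counts in the 3 HuCCT1 libraries and 2 in those of OCUG-1, a depth-scaled ratio of 122 with an exact 95% counting interval of 33.4 to 1009. For the addition of IACS-010759, the OCUG-1 log2 change minus that of HuCCT1 was -1.56 ± 0.32 for PRSS1, -3.25 ± 0.31 for PRSS2 and 0.88 ± 0.19 for PRSS3, where 38.8% of all genes were called. For SPINK1 it was 5.05 ± 0.74, and between 4.62 and 7.95 when 1 library was left out, the highest without the 1.25 µM library of OCUG-1 that held both counts. These differences were not tested for the 4 genes, since the OCUG-1 baseline belongs to the dose pattern. In both lines the starting point of this comparison was the 1.25 µM arm, in which PRSS1 and PRSS2 lay below vehicle in HuCCT1 and above it in OCUG-1.

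PRSS1 and PRSS2 did not keep 1 ratio. PRSS2 made up 33.8%, 40.5% and 39.6% of the summed PRSS1 and PRSS2 counts in HuCCT1 with vehicle and 54.6%, 43.1% and 51.5% with 1.25 µM sorafenib. With 10 µM it made up 31.4%, 33.1% and 19.0%, and with the combination 44.1%, 44.9% and 44.3%. In HuCCT1 the 10 µM arm was below vehicle and both other treated arms above it, with the nearest libraries of 10 µM and vehicle at 33.1% and 33.8% and their exact 95% intervals overlapping. In OCUG-1 the share was 67.2%, 61.5% and 68.9% with vehicle and 81.2%, 78.7% and 81.5% with 1.25 µM sorafenib. It was 66.7%, 41.1% and 65.5% with 10 µM, from only 29 to 56 counts per library, and 53.4%, 49.6% and 48.3% with the combination. The share was thus above vehicle at 1.25 µM in both lines, although the genes themselves were lower there in HuCCT1 and higher in OCUG-1, and in OCUG-1 the combination was below vehicle. This ratio was chosen after the counts were seen, and 3 libraries against 3 cannot reach an exact permutation p under 0.10, so it carries no test.

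**Figure D3:**
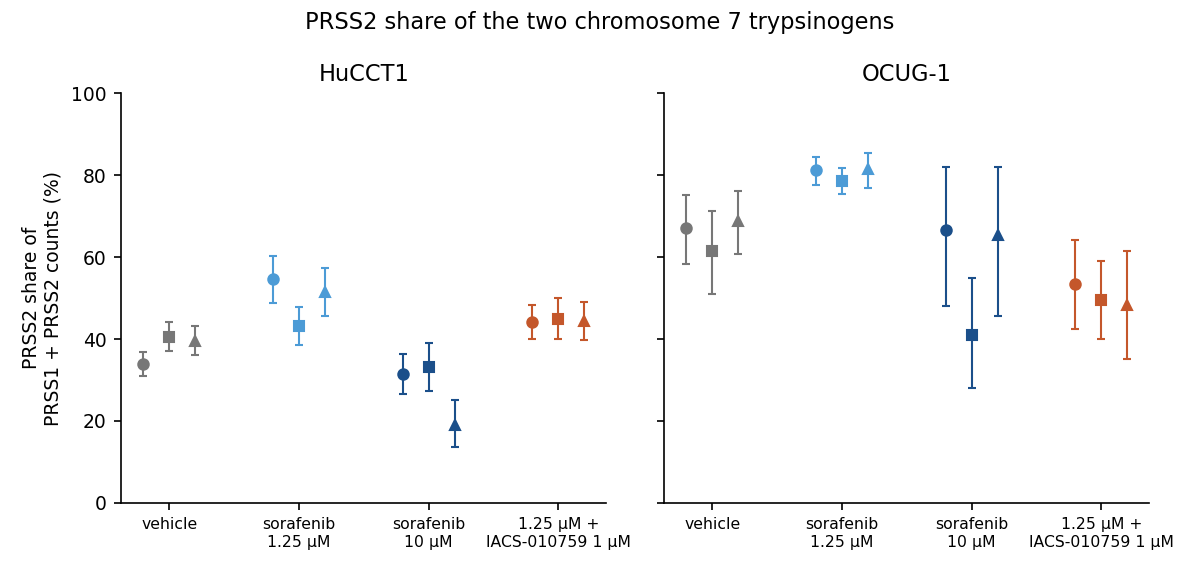
PRSS2 counts as a percentage of PRSS1 and PRSS2 counts together (y axis) in each library, by arm (x axis), with exact 95% binomial intervals that cover counting error only; circles, squares and triangles are replicates 1, 2 and 3. The 1.25 µM libraries sit highest in OCUG-1 (78.7% to 81.5%), and the intervals at 10 µM in OCUG-1 are wide.

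The genes whose pattern over the 12 libraries of a line was most like that of each member were taken from the protein-coding genes averaging at least 10 CPM, by the root mean square difference of centred log2 CPM. A shared order of arms, in either line, follows from this choice and is no separate result. For PRSS1 in HuCCT1 they were MUC20 (0.19), VCAN (0.22) and H2AC6 (0.22), against a spread of PRSS1 itself of 0.59. For PRSS2 in HuCCT1 they were the gastric-type mucin gene MUC5AC (0.22), the chorionic gonadotropin gene CGB5 (0.28) and the mucin gene MUC6 (0.29), against 0.76. MUC5AC averaged 86.0 ± 6.17 CPM with vehicle, 56.4 ± 5.23 with 1.25 µM, 26.2 ± 8.46 with 10 µM and 57.0 ± 1.75 with the combination. PRSS3 in HuCCT1 lay nearest to CDR2L (0.09), TFDP2 (0.10) and FLYWCH1 (0.10), and SPINK1 to LURAP1L (0.14), ABL2 (0.15) and GRB10 (0.16), both groups close to members that varied little (0.22 and 0.35). At 10 µM LURAP1L stood at 97.0, 91.8 and 157 CPM, highest in replicate 3 as SPINK1 was, and so did ABL2 and GRB10 peak there. MUC5AC and PRSS2 were at their lowest in that same library, MUC5AC at 16.6 CPM.

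In OCUG-1 the nearest genes to PRSS1 were DHRS3, a retinal reductase (0.42), STRA6, a receptor for retinol-binding protein (0.42), and SH3TC2 (0.45), against a spread of 0.88. DHRS3 stood at 113 ± 2.98 CPM with vehicle, 198 ± 5.93 with 1.25 µM, 47.1 ± 8.18 with 10 µM and 72.4 ± 7.59 with the combination, the order of arms by mean that PRSS1 and PRSS2 had. Nearest to PRSS2 were the keratin gene KRT19, the succinate receptor gene SUCNR1 and PADI2, all at 0.69 against its own spread of 1.53. So none of the genes compared, all averaging at least 10 CPM, followed the full range of PRSS2. KRT19 stood at 601 ± 45.3 CPM with vehicle, 869 ± 60.7 with 1.25 µM, 152 ± 21.7 with 10 µM and 166 ± 15.1 with the combination. PRSS3 lay nearest to INPP4B (0.20), SSH1 (0.21) and LPXN (0.21), against 0.66, and SPINK1, under 1 CPM on average in OCUG-1, was not compared.

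Among 11 genes of trypsinogen activation, trypsinogen degradation and trypsin reception, 8 were tested in each line. In HuCCT1 0 of 8 were called at 1.25 µM and 0 of 8 when IACS-010759 was added, in edgeR as in DESeq2, with 1 and 4 of them at an unadjusted edgeR p under 0.05. Of all genes, edgeR called 18.5% and 11.6% in these comparisons. At 10 µM edgeR called 2 of 8 and DESeq2 1 of 8, where edgeR called 24.2% of all genes. By edgeR 1 rose, F2RL2 from 0.676 to 1.33 CPM, and 1 fell. The gene that fell, F2RL1, encodes PAR2 and went from 793 ± 69.1 CPM with vehicle to 490 ± 52.0 at 10 µM (-0.70 ± 0.12, adjusted p = 4.17e-04). In OCUG-1 F2RL1 rose from 61.8 ± 9.78 CPM with vehicle to 125 ± 16.7 at 1.25 µM (0.99 ± 0.16, adjusted p = 0.00117), 97.4 ± 20.6 at 10 µM (0.73 ± 0.16, adjusted p = 6.58e-04) and 213 ± 26.9 with the combination (1.87 ± 0.16, adjusted p = 3.03e-08). The receptor was thus above vehicle in each treated OCUG-1 arm, including 10 µM, where PRSS1 and PRSS2 were at their lowest. F2R, the gene of the thrombin receptor PAR1, was highest at 1.25 µM, where PRSS1 and PRSS2 were highest too: 25.1 ± 2.91 CPM with vehicle, 46.003 ± 1.94 at 1.25 µM (0.84 ± 0.18, adjusted p = 0.00678), 21.8 ± 6.55 at 10 µM and 20.005 ± 3.05 with the combination.

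Of the same 8 genes in OCUG-1, 4 rose (F2RL1, F2R, CTSL and CTSD) and 1 fell (CFTR, the bile duct chloride channel) at 1.25 µM against vehicle. At 10 µM F2RL1, CTSL and CTSB rose and F2RL2 and CFTR fell, and with the combination the same 3 rose while F2RL2, CFTR and TMPRSS15 fell. When IACS-010759 was added to 1.25 µM sorafenib, F2RL1 and CTSL rose and F2R, F2RL2 and TMPRSS15 fell. The called share was thus 5 of 8 at 1.25 µM beside 10.5% of all genes, 5 of 8 at 10 µM beside 63.1%, 6 of 8 with the combination beside 59.5% and 5 of 8 for the addition beside 58.1%, so that at 10 µM it lay at the level of all genes. CTSL, a lysosomal protease that degrades trypsinogen, rose at both doses, from 79.6 ± 11.3 CPM to 114 ± 4.68 and 192 ± 12.2 (0.48 ± 0.11, adjusted p = 0.0107, and 1.34 ± 0.11, adjusted p = 8.13e-09). CTSB, the lysosomal protease that can activate trypsinogen, rose at 10 µM from 452 ± 75.1 to 613 ± 79.0 CPM (0.51 ± 0.14, adjusted p = 0.00336). TMPRSS15, the gene of enteropeptidase, averaged 58.0, 53.8, 63.9 and 50.7 CPM in the 4 HuCCT1 arms in the order above and 48.7, 54.1, 38.4 and 26.8 CPM in OCUG-1. It fell in OCUG-1 with the combination, against vehicle (-0.78 ± 0.17, adjusted p = 7.46e-04) and against 1.25 µM (-0.90 ± 0.17, adjusted p = 2.19e-04). The count tables do not show where in this gene its reads lie, and a long noncoding RNA overlaps it on the same strand. CTRC, the chymotrypsin that degrades trypsinogen, averaged under 1 CPM in every arm.

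Of 21 other inhibitors of trypsin-like proteases, 12 were tested in HuCCT1 and 9 in OCUG-1. In HuCCT1 TFPI2 rose and SLPI fell at 1.25 µM, and TFPI2 rose and WFDC2 and SPINK4 fell at 10 µM. Of all genes, 18.5% and 24.2% were called in these comparisons. When IACS-010759 was added, 2 rose, PI3 (elafin) and the secreted inhibitor SLPI (7.46 ± 0.522 to 16.9 ± 2.36 CPM, 1.18 ± 0.17, adjusted p = 3.89e-04). There 11.6% of all genes were called. In OCUG-1 TFPI and APP rose at 1.25 µM, 3 rose (APP, PI3 and TFPI2) and 5 fell (SLPI, SERPINA1, TFPI, SPINT1 and AMBP) at 10 µM, and PI3 and TFPI2 rose and the same 5 fell with the combination, each against vehicle and beside 10.5%, 63.1% and 59.5% of all genes called. TFPI, tissue factor pathway inhibitor, had the order of PRSS1 and PRSS2 over the doses, 393 ± 28.3 CPM with vehicle, 601 ± 19.3 at 1.25 µM (0.58 ± 0.12, adjusted p = 0.00664) and 249 ± 35.0 at 10 µM (-0.59 ± 0.12, adjusted p = 3.83e-04). SPINT1, a Kunitz-type inhibitor of cell-surface proteases, fell from 22.3 ± 2.74 CPM with vehicle to 12.9 ± 3.61 at 10 µM (-0.73 ± 0.20, adjusted p = 0.00461) and 9.55 ± 2.01 with the combination (-1.14 ± 0.21, adjusted p = 1.49e-04), and SLPI from 14.99 ± 2.43 to 7.48 ± 0.480 at 10 µM (-0.93 ± 0.16, adjusted p = 4.07e-05). In the 2 OCUG-1 arms in which SPINK1 had more counts than with vehicle, 5 of these inhibitors were thus lower and PI3 and TFPI2 were higher. The median log2 fold change of the 9 inhibitors at 10 µM was -0.59, beside 0.000679 over all tested genes.

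**Figure D4:**
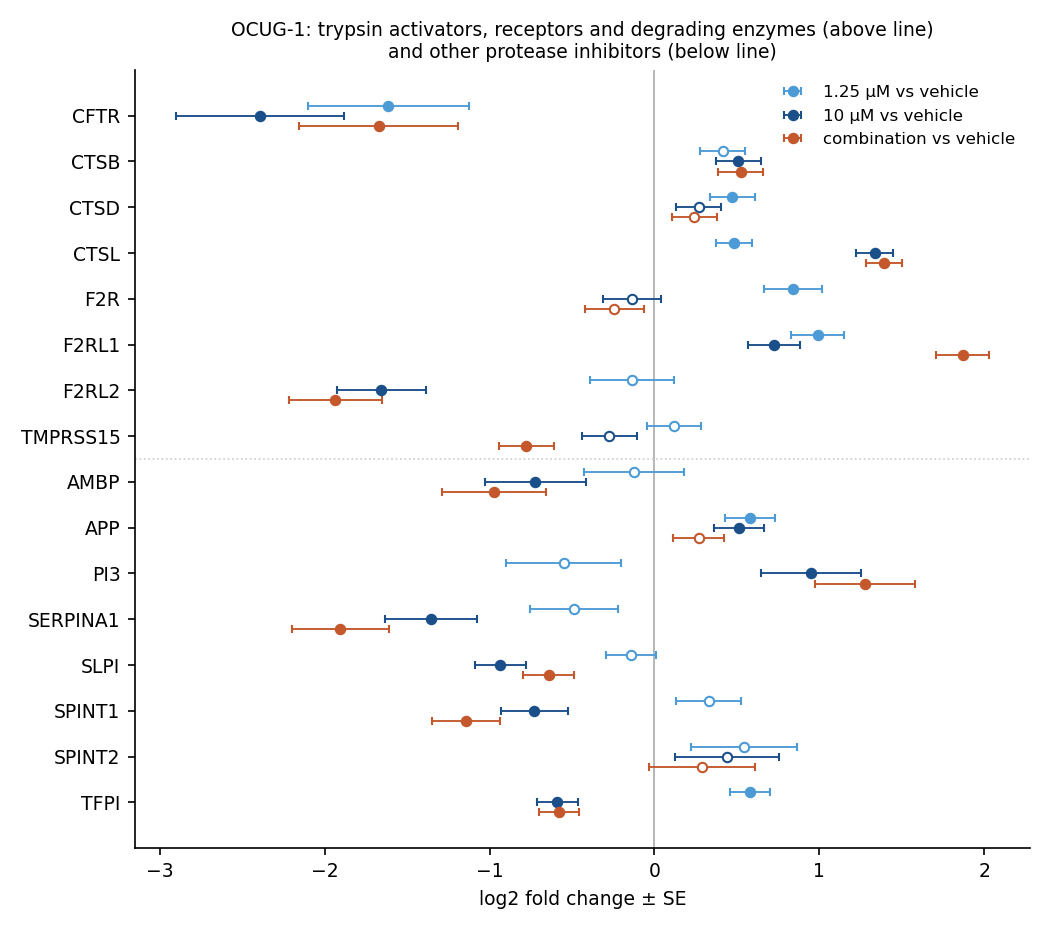
Log2 fold change against vehicle with its SE (x axis) in OCUG-1 for genes of trypsinogen activation, degradation and trypsin reception (above the dotted line) and other inhibitors of trypsin-like proteases (below it) that averaged at least 1 CPM in one of the arms. Light blue is 1.25 µM sorafenib, dark blue 10 µM and orange the combination, and filled points have an adjusted p under 0.05; F2RL1 lies right of 0 in all 3 arms, and TFPI right of 0 at 1.25 µM (0.58) and left of 0 at 10 µM (-0.59).

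Among 27 other epithelial trypsin-like proteases, 12 were tested in OCUG-1. Against vehicle PLAU rose and PRSS27 fell at 1.25 µM, beside 10.5% of all genes called. At 10 µM 1 rose (PLAU) and 5 fell (PLAT, PRSS27, PRSS22, TMPRSS2 and KLK10). With the combination 2 rose (PLAU and TMPRSS9) and 4 fell (PLAT, TMPRSS2, PRSS27 and KLK10). So 6 of 12 were called in each of these last comparisons, beside 63.1% and 59.5% of all genes. The gene of the tissue plasminogen activator, PLAT, fell at 10 µM from 614 ± 12.1 to 100 ± 22.3 CPM (-2.54 ± 0.16, adjusted p = 5.24e-10), and the urokinase gene PLAU was above vehicle at both doses (20.2 ± 1.68 CPM, then 54.3 ± 2.08 and 55.0 ± 3.79). In HuCCT1 18 were tested, of which 1 rose (PRSS22) and 4 fell (TMPRSS2, TMPRSS3, TMPRSS4 and PRSS27) at 1.25 µM and 2 rose (PLAU and TMPRSS11E) and 4 fell (PLAT, PRSS27, KLK6 and KLK10) at 10 µM. The called shares of all genes were 18.5% and 24.2%. SPINK1 is also known as an acute-phase gene, and of 25 genes of the acute phase and IL-6 signalling 19 were tested in OCUG-1: 8 fell at 1.25 µM, 2 rose (IL11 and LIFR) and 12 fell at 10 µM, and 3 rose (IL11, LIF and LIFR) and 12 fell with the combination. This made 8 of 19 beside 10.5% of all genes at 1.25 µM, 14 of 19 beside 63.1% at 10 µM and 15 of 19 beside 59.5% with the combination. The fibrinogen chain gene FGA fell from 58.4 ± 7.30 CPM with vehicle to 13.4 ± 2.62 at 1.25 µM and 1.13 ± 0.252 at 10 µM (-5.60 ± 0.20, adjusted p = 4.25e-13), and the cytokine gene IL11 rose at 10 µM from 1.098 ± 0.111 to 12.02 ± 1.69 CPM (3.51 ± 0.23, adjusted p = 5.20e-10). In HuCCT1 17 were tested, with 2 higher (LIF and SAA1) and 5 lower (LCN2, CP, C3, JAK1 and OSMR) at 1.25 µM and 3 higher (LIFR, IL6ST and SOCS3) and 6 lower at 10 µM. These calls stood beside 18.5% and 24.2% of all genes at the same doses.

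Of 8 biliary epithelial markers in OCUG-1, 2 rose (KRT7 and KRT19) and 1 fell (CFTR) at 1.25 µM, beside 10.5% of all genes called. At 10 µM 2 rose (KRT7 and SOX9) and 5 fell (KRT8, KRT18, KRT19, CDH1 and CFTR), and with the combination the same 2 rose while EPCAM fell beside the same 5, in comparisons with 63.1% and 59.5% of all genes called. Their summed level per library was 4570 to 5373 CPM with vehicle, 5829 to 7431 at 1.25 µM, 1152 to 1470 at 10 µM and 1412 to 1624 with the combination. Their part in the trypsinogen result was not tested. Acinar markers did not take the order of PRSS1 and PRSS2: they summed to 15.7 to 18.9 CPM with vehicle, 12.3 to 13.8 at 1.25 µM, 22.3 to 27.7 at 10 µM and 21.0 to 24.5 with the combination. TRBC2, a T cell receptor constant gene 26477 bases from PRSS2, averaged 24.7 ± 1.49 CPM in OCUG-1 with vehicle, 46.1 ± 4.31 at 1.25 µM, 48.8 ± 5.59 at 10 µM and 68.2 ± 1.21 with the combination, while CD14, the highest of the other 5 immune markers, averaged at most 3.62 CPM. This neighbour, chosen after its values were seen, was thus above vehicle in each treated arm and did not go down with PRSS1 and PRSS2 at 10 µM. The pseudogene PRSS3P3 had no count in any library.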

How the data were processed

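RNA from TRIzol extracts was sequenced as TruSeq mRNA libraries, 150-base read pairs, per the labels' protocols. For each line the authors deposited 1 table of whole-number counts of reads per Ensembl gene, not normalized. The submitters' processing notes name bcl2fastq, fastp 1.3.2, HISAT2 2.2.2, GRCh38, featureCounts of Subread 2.1.1, MultiQC 1.33, R 4.4.1 and DESeq2 1.42.1. How multi-mapped reads were treated, which annotation was counted and whether strand was used is not given in the sources used here. Extra runs were pooled for 4 OCUG-1 libraries, which the labels do not name.

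Of 78724 gene IDs, 61481 matched the gene name table, and coordinates came from GENCODE release 29. The 4 members and all gene lists were chosen with earlier results of these data known. The quasi-likelihood tests used edgeR 4.0.16 under R 4.3.3 (TMM scaling, filterByExpr with a minimum count of 10, robust quasi-likelihood F tests, two-sided, Benjamini-Hochberg over all tested genes, threshold 0.05), in 1 fit of 12 libraries per line and 1 of 24 for differences between lines. Its steps were tested on simulated data. The members carry no test where a comparison uses OCUG-1 libraries at 1.25 or 10 µM, nor SPINK1 where OCUG-1 enters, although tests of the combination and between lines had been planned. The standard error is the log2 fold change divided by the root of F, CPM levels use the TMM factors of the 24-library fit, and percent shares carry exact intervals at the 95% level. The p-values rest on the spread between replicates, estimated over all groups of a fit and moderated over genes. The labels call the 3 replicates of a group independent biological ones. A list gene was named if called, with a mean of 10 CPM or more in one group and no overlap of the groups, up to 4 per list and comparison, and the text gives a selection. Genes named beside counts of 5 or fewer were added after their values were seen. Alternatives were RLE size factors, library size, DESeq2 1.42.0, no filter, the compared groups alone, a replicate block, leaving out each library, and summed trypsinogens.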

Additional observations from a re-analysis of the deposited data

Results flagged for a closer look

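At 1.25 µM sorafenib against vehicle, PRSS1 and PRSS2 went opposite ways in the lines. Every HuCCT1 library with sorafenib was below every vehicle library, with log2 fold changes of -1.36 for PRSS1 and -0.67 for PRSS2. Every OCUG-1 library with sorafenib was above every vehicle library, with log2 fold changes of 1.18 and 2.22. The difference between the lines at this dose was not tested, since the genes were chosen for the OCUG-1 dose pattern.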

How the results depend on the processing

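Of 622 values of the 47 results under alternatives, 571 kept their direction and their side of the threshold or moved by less than 1 SD. RLE size factors moved none of them. Scaled by library size alone, 3 HuCCT1 differences passed: PRSS3 (-0.32) and SPINK1 (-0.83) at 1.25 µM against vehicle, and PRSS3 (0.33) at 10 µM against 1.25 µM. Without a filter SPINK1 passed at 1.25 µM in HuCCT1 (-0.72). DESeq2 changed no call, and gave SPINK1 in OCUG-1 at 10 µM as 3.79 against vehicle and 3.82 against 1.25 µM, and as -6.92 for OCUG-1 against HuCCT1 with vehicle.

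Summing the trypsinogens and their pseudogenes to 1 row gives the sum and not its parts. In HuCCT1 the sum was -0.49 at 1.25 µM (PRSS3 alone -0.18), -0.51 at 10 µM (PRSS3 alone -0.02) and -0.0267 between the doses (PRSS2 alone -1.42). It rose by 0.40 when IACS-010759 was added (PRSS1 alone 0.09, PRSS2 alone -0.21). In OCUG-1 it was 1.78 at 1.25 µM, -0.91 at 10 µM (PRSS3 alone 0.88), -2.69 between the doses (PRSS3 alone 0.32), -1.43 for the combination against 1.25 µM (PRSS3 alone 1.55) and 0.35 against vehicle (PRSS2 alone -1.12, PRSS3 alone 2.11). The line difference of the sum was -1.95 (PRSS3 alone 0.88).

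Leaving out 1 library each gave -0.78 to -0.53 for PRSS2 at 1.25 µM and -0.65 to -0.11 for SPINK1 at 10 µM against vehicle in HuCCT1. In OCUG-1 it gave -2.35 to -1.28 for PRSS1 and 3.04 to 6.36 for SPINK1 at 10 µM against vehicle, and -3.55 to -2.46 for PRSS1 and 3.14 to 6.33 for SPINK1 between the doses. For SPINK1 it gave 4.59 to 7.91 for the combination against vehicle, 4.69 to 7.88 for the combination against 1.25 µM, 4.62 to 7.95 for the line difference and -9.64 to -6.22 for OCUG-1 against HuCCT1 with vehicle. The SPINK1 values farthest from 0 came without vehicle replicate 3 or 1.25 µM replicate 2, the libraries with the 2 counts. For the combination against 10 µM it gave 1.11 to 2.15 for PRSS1 and 1.08 to 1.41 for PRSS2.

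The labels do not say whether replicate numbers pair the libraries, and the correlations do not settle it. Of 18 same-number pairs per line, 4 in HuCCT1 and 1 in OCUG-1 had deviations correlated over 0.1, and 6 and 3 of 12 libraries correlated best with their own number. The median correlation of same-number pairs was 0.050 in HuCCT1, against -0.024 for other pairs, and -0.030 against 0.010 in OCUG-1. A replicate block raised the number of called genes in each comparison within HuCCT1 and lowered it in each within OCUG-1. The block changed no call of the 4 genes, with for example -0.67 for PRSS2 at 1.25 µM in HuCCT1.

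Counts of called genes moved by over 1.5 times in 5 comparisons. HuCCT1 at 1.25 µM against vehicle went from 3616 to between 1710 and 2361 without 1.25 µM replicate 1 or 2 or vehicle replicate 1 or 3. HuCCT1 at 10 µM against 1.25 µM went from 5518 to 3567 or 3472 without 1.25 µM replicate 1 or 2. The HuCCT1 combination against 1.25 µM went from 2276 to between 877 and 1097 without any 1 combination library or 1.25 µM replicate 1 or 2, and to 3474 with only the compared groups. OCUG-1 at 1.25 µM against vehicle went from 2160 to between 653 and 1082 without 1.25 µM replicate 2 or 3 or vehicle replicate 1 or 3. The OCUG-1 combination against 10 µM went from 1077 to 1643 with DESeq2, to 717 with only the compared groups, to 659 with the replicate block, and to between 197 and 688 without combination replicate 2 or 3 or 10 µM replicate 1 or 3. The SPINK1 values in OCUG-1 rest on 2 counts in each of 2 groups.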
